A study of Homo sapiens with 24 samples.

Results

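The regions described here carried H3K27ac in control DCIS cells, had no counterpart in control 10A cells, and were still marked in DCIS cells after knockdown of ANCO1. They were chosen by which regions the deposited tables of immunoprecipitated chromatin against input list. A region of the DCIS shCTRL table was a member when it overlapped no region of the 10A shCTRL table by 1 bp or more and did overlap a region of the DCIS shANCO1 table. This gave 5245 of the 15482 DCIS shCTRL regions (33.9%). Of the others, 6591 (42.6%) were shared with 10A shCTRL and 3646 (23.5%) were DCIS-only without a DCIS shANCO1 region, hereafter not retained.

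H3K27ac was measured by ChIP-seq in 2 human mammary epithelial lines. 10A (MCF10A) is an immortalised, non-tumorigenic line, and DCIS (MCFDCIS) is a model of ductal carcinoma in situ of the triple-negative type at an early stage. Each line carried a lentiviral hairpin against ANCO1 (shANCO1) or a control hairpin against GFP (shCTRL), with puromycin selection in both, so the control cells were also transduced and selected. With either hairpin, each line had 3 immunoprecipitated and 3 input libraries, 24 libraries in all. The labels do not say that the 3 libraries of a group came from separate cultures. The deposited tables hold 1 value per region for a whole group, so neither sequencing depth nor replicate spread could be read from them.

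Acetylation of histone H3 at lysine 27 marks active promoters and active enhancers, and it is written by the acetyltransferases CBP and p300 and removed by histone deacetylases. Marked nucleosomes sit beside the stretch of open DNA where transcription factors bind, so the mark flanks a factor's site rather than covering it. ANCO1, the product of ANKRD11, is a nuclear protein that binds p160 coactivators such as AIB1 and can bring histone deacetylases to them. AP-1 dimers of FOS and JUN proteins and TEAD factors with YAP or TAZ occupy many enhancers of mammary epithelial cells.

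The sequences below show the DNA beside 7 of the regions described later, each with the AP-1 word nearest to the region's midpoint. They were picked, after the values were seen, from 43 named or called members searched within 1000 bp of the midpoint. Of these 21 had an AP-1 word, which lay outside the member in 16, and 4 of the 5 most lost regions had none. They are given because, over all distal regions, AP-1 words lay beside the retained regions more often than inside them. Each run is 60 bases of the plus strand of GRCh38 (hg38), 5′ to 3′, and the capitals mark the word, which was searched on both strands as TGACTCA or TGAGTCA. The CUEDC1 word lies in the gap between a pair of retained regions, and the next 5 lie beside regions that were up in shANCO1 DCIS cells. The last lies beside a region that was down.
CUEDC1 intron (chr17:57948702-57948761): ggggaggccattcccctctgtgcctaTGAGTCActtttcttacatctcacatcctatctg
PPFIBP2 intron (chr11:7600498-7600557): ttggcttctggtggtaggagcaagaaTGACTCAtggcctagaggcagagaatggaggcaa
WWTR1 intron (chr3:149576388-149576447): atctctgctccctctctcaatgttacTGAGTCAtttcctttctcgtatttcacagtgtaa
RUNX1 intron (chr21:35148792-35148851): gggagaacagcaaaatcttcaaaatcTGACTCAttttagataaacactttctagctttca
CDH1 intron (chr16:68756364-68756423): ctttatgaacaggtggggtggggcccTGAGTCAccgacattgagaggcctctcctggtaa
MET start (chr7:116672852-116672911): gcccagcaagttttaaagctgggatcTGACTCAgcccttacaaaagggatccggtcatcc
ETS1-distal, lost (chr11:128038058-128038117): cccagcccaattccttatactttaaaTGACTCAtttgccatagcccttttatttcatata

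A second set gives 200 bases at the midpoint of 5 regions, from the most gained and most lost, a promoter, and a wide region over a start site. Capitals here mark a TEAD word (GGAATG, either strand), the only one of the 7 motifs searched that occurred in these 5 windows. The GC content ran from 35.5% in the CLDN10 intron to 63.5% at LEMD1, and the CpG count from 0 to 8, highest at ID2.
SCIRT locus, gained (chr6:44073051-44073250): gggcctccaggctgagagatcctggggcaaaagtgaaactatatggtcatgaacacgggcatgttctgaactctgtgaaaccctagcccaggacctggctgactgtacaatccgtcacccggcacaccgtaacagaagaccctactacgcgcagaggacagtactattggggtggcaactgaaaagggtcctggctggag
ID2 start, gained (chr2:8679551-8679750): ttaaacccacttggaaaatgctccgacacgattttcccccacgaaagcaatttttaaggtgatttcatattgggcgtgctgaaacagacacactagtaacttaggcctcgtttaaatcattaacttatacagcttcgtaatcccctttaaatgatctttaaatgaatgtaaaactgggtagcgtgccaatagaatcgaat
ETS1-distal, lost (chr11:128038901-128039100): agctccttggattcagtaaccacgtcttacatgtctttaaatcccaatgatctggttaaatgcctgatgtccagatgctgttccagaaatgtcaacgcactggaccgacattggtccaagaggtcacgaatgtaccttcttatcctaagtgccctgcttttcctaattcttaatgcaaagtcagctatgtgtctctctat
CLDN10 intron, lost (chr13:95531901-95532100): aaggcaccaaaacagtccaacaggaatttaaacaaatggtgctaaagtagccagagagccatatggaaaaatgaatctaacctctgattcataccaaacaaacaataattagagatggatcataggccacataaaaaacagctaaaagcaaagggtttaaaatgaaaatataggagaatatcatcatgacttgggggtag
LEMD1 start, wide (chr1:205447551-205447750): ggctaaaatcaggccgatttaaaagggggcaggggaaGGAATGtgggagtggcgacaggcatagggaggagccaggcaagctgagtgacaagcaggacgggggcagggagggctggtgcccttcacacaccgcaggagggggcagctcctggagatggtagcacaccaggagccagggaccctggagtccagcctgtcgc

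The tables fitted the label of epithelial lines. Of 10 epithelial marker genes, 8 had a DCIS shCTRL region over the gene or the 5 kb upstream, and 7 had a 10A shCTRL region. KRT14 and KRT19 had none in either line. Of 15 markers of blood, endothelial and fibroblast cells, only PECAM1 had regions, 6 in DCIS shCTRL and 2 in 10A shCTRL. None of the 15 had a retained region. Of the retained regions, 12 lay at 5 of the epithelial genes, CDH1, EPCAM, ITGA6, KRT17 and KRT8.

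Being listed is a strict criterion, because the input tables hold only strongly enriched regions. The largest FDR was 3.92e-08 for 10A shCTRL and 1.24e-08 for DCIS shANCO1, whereas DCIS shCTRL held 2 regions over 0.05, and the filter that left weaker regions out is not given in the sources used here. A region not listed in 10A therefore failed that filter and may still carry some mark. At the edge of the rule, 186 retained regions had a 10A shCTRL region no more than 100 bp away, with a median log2 enrichment over DCIS input of 3.68, and 247 excluded regions shared 100 bp or less with one, with a median of 3.76. Farther out, 3297 retained regions had no 10A shCTRL region within 10 kb. At the other edge, 212 retained regions shared 100 bp or less with a DCIS shANCO1 region (median 3.70).

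The retained regions were narrow and of moderate enrichment. Their widths ran from 200 to 5000 bp with a median of 500 bp, 3.40 Mb in all, and 816 (15.6%) were a single window. Their log2 enrichment over input in shCTRL cells had a median of 3.69 and ran from 2.16 to 9.30. Regions not retained were narrower (median 300 bp) with a higher median enrichment of 4.41, and shared regions were wider (700 bp) with a median of 4.27. In the shANCO1 table the overlapping regions had a median log2 enrichment of 4.31, which was higher than the shCTRL value for 3625 of the 5245 (69.1%). How the tables were scaled against each other is not given in the sources used here, so this difference between them also holds any shift in scale.

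The change of each retained region was then read from the authors' direct comparison of shANCO1 with shCTRL, pairing each with the direct region that shared the most bases. The direct regions were wider, and the 5245 members fell in 4634 of them, so neighbours can share a value. At an FDR under 0.05 in the authors' csaw test, 694 retained regions (13.2%, Wilson 95% interval 12.3 to 14.2) were up in DCIS shANCO1 cells and 269 (5.13%, 4.56 to 5.76) were down. Over all 44790 regions of that comparison, 23.6% were up and 4.86% were down. The median log2 fold change was 0.38 for the retained regions, with quartiles of -0.48 and 0.93, against 0.52 over all regions. The rule read the same libraries: a region had to pass the input filter in both shCTRL and shANCO1 cells, which bounds how far it could rise or fall. Counted relative to the table's median, with at least 1 log2 unit from it, 252 were up and 269 down, against 16.3% and 4.86% of all regions. As the median is positive, this asks a larger rise than fall from the deposited zero, and the down count did not move. At least 1 log2 unit from the deposited zero, 651 (12.4%) were up and 267 (5.09%) down, against 23.3% and 4.83% of all regions. No test of the retained regions against other regions was made, and the counts are a description. The Wilson intervals cover the counting of regions only, and neighbouring regions are not independent.

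The classes of DCIS shCTRL regions were spread differently. The not retained regions, which by the rule are absent from the shANCO1 table, had a median of -0.88 with 94 up and 1068 down of 3646. The shared regions had a median of 0.51 with 1139 up and 170 down of 6591. The retained regions lay close to the shared ones in the plot of DCIS change by class, with a main mode between 0.6 and 0.8 and smaller ones between -0.2 and 0 and between -1.0 and -0.8. A deposited fold change belongs to 1 representative window and is no average over the region.

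**Figure D1:**
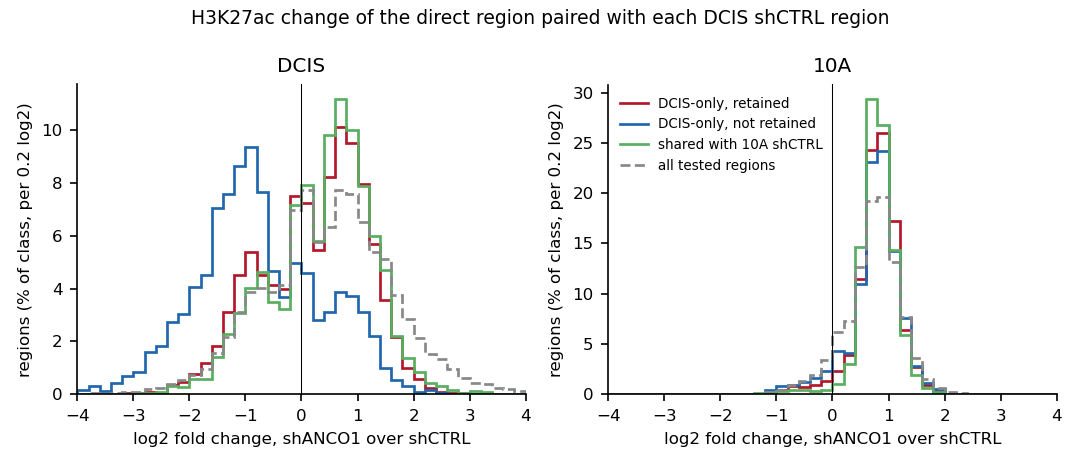
Histograms of the deposited log2 fold change of shANCO1 over shCTRL (x axis, bins of 0.2) as a percent of each class (y axis), for the direct region paired with each DCIS shCTRL region in DCIS (left) and 10A (right), with all tested regions dashed. In DCIS the retained regions had a median of 0.38 and the not retained regions -0.88, and in 10A their medians were 0.83 and 0.80.

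Position relative to genes split the retained regions. A region was at a TSS when it lay within 1 kb of the start of a protein-coding transcript in GENCODE release 44, and 2598 retained regions did (49.5%, 48.2 to 50.9), against 28.8% of the not retained and 62.0% of the shared regions. Of the other retained regions, 153 overlapped an exon, 1222 lay in introns and 1272 were intergenic. Those at a TSS were GC-rich (median 59.8% in 500 bp) with a median of 30 CpG dinucleotides, and those away from a TSS had 48.2% and 7. At a TSS 134 (5.16%) were up and 50 (1.92%) were down in DCIS, with a median log2 fold change of 0.12. Away from a TSS 560 (21.2%) were up and 219 (8.27%) down, with a median of 0.64. The direct comparison as a whole had the same split, with 7.99% up and 2.20% down at a TSS and 30.1% and 5.97% elsewhere.

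Width went with the direction of change in DCIS. Retained regions of 400 bp or less had 435 up (16.9%) and 24 down (0.934%) of 2570, with a median log2 fold change of 0.55. Those over 1600 bp had 17 up (5.4%) and 94 down (29.8%) of 315, with a median of -0.84. In the shared class the regions over 1600 bp had a median of 0.48 with 13.9% up and 5.94% down. In the not retained class only 50 regions were that wide, and 46 of them were down. Wide retained regions were also the most enriched in shCTRL cells (median 5.13, against 3.36 for the narrowest), and 22.5% were at a TSS against 55.2%. Weak regions could be members only where they passed the filter in shANCO1 cells too, and the part of that filter in this pattern was not tested. Width was also read from the shCTRL libraries that the change is measured against, and the part of that choice was not tested. Direct regions grouped by their own width had 22.8% up and 3.63% down at 400 bp or less. Over 1600 bp they had 25.7% and 6.9%. Among regions away from a TSS the pattern was similar, with 352 up and 14 down of 1151 at 400 bp or less and 16 up and 80 down of 244 over 1600 bp.

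**Figure D2:**
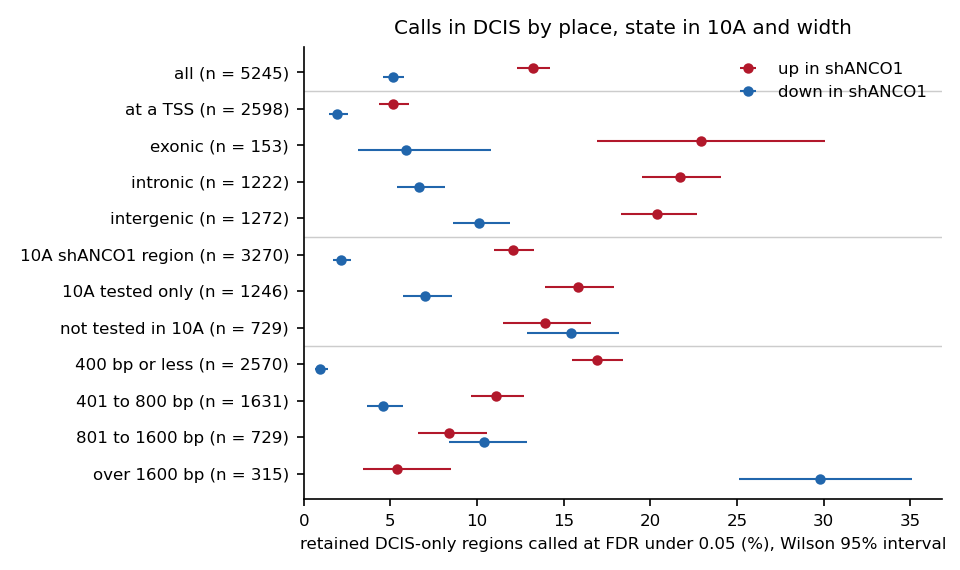
Percent of retained DCIS-only regions called up (red) or down (blue) in DCIS shANCO1 cells at an FDR under 0.05 in the authors' test (x axis, with Wilson 95% intervals), by place, by state in 10A and by width (y axis, with the number of regions). The down share rose from 0.934% at 400 bp or less to 29.8% over 1600 bp, and the up share fell from 16.9% to 5.4%.

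The 10A shANCO1 table lists 28607 regions over 25.3 Mb, against 15490 over 9.04 Mb for 10A shCTRL, from which the retained regions were absent by the rule. An overlap with the longer list is therefore no measure of change. A 10A shANCO1 region overlapped 3270 of them (62.3%, 61 to 63.6), against 27.1% of the not retained regions and 98.5% of the shared ones. A further 1246 lay in a region tested in the 10A direct comparison without being listed as enriched in either 10A group. The last 729 (13.9%) lay in no region tested in 10A, against 42.5% of the not retained. These 729 were mostly distal, with 9.05% at a TSS. They were the most enriched in DCIS shCTRL cells (median log2 4.84). In DCIS 101 were up (13.9%) and 112 down (15.4%), against 13.2% and 5.13% of all retained regions. The 3270 with a 10A shANCO1 region had 396 up (12.1%) and 70 down (2.14%) in DCIS.

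In the 10A direct comparison, 4516 retained regions could be paired, with 4061 direct regions. Of these 2726 (60.4%, 58.9 to 61.8) were up in shANCO1 cells and 6 (0.133%) were down. Over all 50284 regions of 10A, 43.6% were up and 0.225% were down. The median log2 fold change was 0.83 against 0.76 over all regions. Place differed between these sets. At a TSS 66.3% of the paired members and 59.8% of all 10A regions were up, and elsewhere 52.8% and 38.3%. Grouped by their own width, 19.1% of all 10A regions were up at 400 bp or less and 69.5% over 1600 bp. The part of width in the members' share was not tested. The 10A values shifted upward together, and 95.7% of the paired members had a positive value. Relative to the table's median, with at least 1 log2 unit from it, 23 members (0.509%) were up and 6 were down, against 1.14% up over all regions. With the deposited zero and a change of at least 1 log2 unit, 26.4% of the members and 25.7% of all regions were up. The higher share of members up was thus lost or nearly lost under these settings. It held at an FDR under 0.01 (37.2% against 25.5%) and under 0.1 (70.9% against 53.1%). It also held with at least 5 windows (62.6% against 54.7%) and with pairing by the midpoint (61.7% against 43.6%). The rule required no enriched region in 10A shCTRL cells, so the 10A change is not independent of it either.

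The calls of the lines were then set side by side. Of the 694 members up in DCIS, 356 were up in 10A, 237 were not called and 101 were not tested there. Of the 269 down in DCIS, 65 were up in 10A, 1 was down, 91 were not called and 112 were not tested. Both counts up in 10A are to be read against the 60.4% of all members tested in 10A that were up there. The 65 with opposite calls paired with 62 DCIS direct regions and had a median width of 800 bp, and 24 were at a TSS. The lines were separate cultures with separate libraries, and the difference between the lines at a region was not tested.

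**Figure D3:**
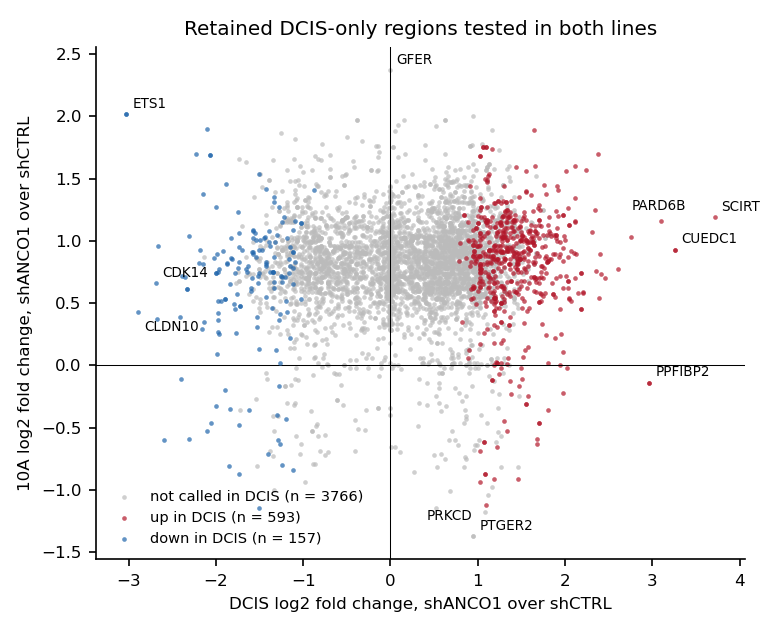
Log2 fold change of shANCO1 over shCTRL in DCIS (x axis) and 10A (y axis), from the authors' direct tables, for the 4516 retained regions tested in both lines, coloured by the DCIS call. Labels give the nearest TSS of the most changed regions (SCIRT by the authors' annotation). The pair labelled ETS1 sits at -3.03 in DCIS and 2.02 in 10A.

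The largest gains in DCIS were at narrow regions inside wider changed domains. The top one lay at chr6:44073001-44073300, by the deposited annotation at the promoter and an intron of SCIRT, a long noncoding RNA gene, and 53.6 kb from the nearest protein-coding TSS, that of TMEM63B. Its log2 fold change was 3.72 (FDR 2.77e-06 in the authors' test, with 18 of 28 windows up), and in 10A it was 1.19 (FDR 4.43e-05). A pair of retained regions in an intron of CUEDC1, which encodes a protein with a ubiquitin-binding CUE domain, shared a direct region with 3.26 (FDR 3.42e-08) in DCIS and 0.93 (FDR 0.000569) in 10A. The region 780 bp from the TSS of PARD6B, a cell polarity protein, had 3.1 (FDR 2.22e-08) in DCIS and 1.16 in 10A. The last of the 5 lay in an intron of PPFIBP2, which encodes liprin-beta 2. It had 2.96 (FDR 0.000151) in DCIS and -0.14 (FDR 0.75) in 10A. These gained regions were only 200 to 400 bp wide in the shCTRL table, whereas their direct regions held 21 to 46 windows.

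The largest losses were at wider regions. Neighbouring regions at chr11:128038301-128039700 and chr11:128040001-128042000 lay in an intergenic stretch 483 kb and 480.2 kb from the TSS of ETS1, with log2 enrichment over input of 8.25 and 8.19 in shCTRL cells and 5.77 in shANCO1 cells. Both had -3.03 in DCIS (FDR 9e-06 and 9.01e-05). In 10A the pair shared a direct region with 2.02 (FDR 4.16e-05, 12 of 13 windows up), among the 3 largest 10A gains at retained regions. The widest retained region of all, 5000 bp in an intron of CLDN10, a tight junction gene, had -2.89 (FDR 2.13e-09, 31 of 32 windows down). In 10A its value was 0.43 (FDR 0.307). A region 207 kb from the TSS of RFC3, and by the deposited annotation in an exon of STARD13, had -2.85 (FDR 8.62e-08) and was not tested in 10A. The start of CDK14, a cyclin-dependent kinase, had -2.68 (FDR 0.00323) in DCIS and 0.66 (FDR 0.0423) in 10A. Against input its listed log2 enrichment was 4.93 in shCTRL and 6.90 in shANCO1 DCIS cells, opposite in sign to the direct comparison. Other named regions had such a conflict. Enrichment over input was lower in shANCO1 cells at the gained regions of SCIRT (4.96 to 4.27) and PPFIBP2 (6.76 to 4.35) and at one of the CUEDC1 pair (4.68 to 3.76), and higher at the lost region near STARD13 (3.56 to 4.39). Of all 694 members called up, 202 (29.1%) had a lower value over input in shANCO1 cells, and of the 269 called down, 109 (40.5%) had a higher one. The values come from different windows and tables, and the part of either in these conflicts was not tested.

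The 5 most enriched retained regions all had a negative change in DCIS. They were picked by enrichment in the shCTRL libraries that the change is measured against, a choice that favours negative values. They had log2 enrichment over input of 8.59 to 9.30 in shCTRL cells, and each passed the test in the down direction. Their places were 235 kb from the TSS of OSR1 (9.30, change -1.16), 857 kb from BCL11A (9.10, change -2.37), in an intron of CHRM3 (9.05, change -1.27), at the start of ITPRID1 (8.60, change -2.34) and 387 kb from ETS1 (8.59, change -1.97). All but the OSR1-distal region were untested in 10A. The other 4 of the 5 widest regions did not pass the test in DCIS. They were an intergenic region 424 kb from ADGRL2 (-0.97), the shared start region of LEMD1 and BLACAT1 (-0.81), an intron of TCF7L2, the WNT pathway factor (0.38), and the start of KRT15, a basal keratin (-0.97).

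In 10A the largest gain at a retained region was at the start of GFER, a sulfhydryl oxidase gene, with 2.37 (FDR 7.78e-06) and a DCIS value of -0.00 (FDR 0.998). The 3 largest 10A losses were a pair of regions 54.4 kb and 55.5 kb from PTGER2, which shared a direct region at -1.37 (FDR 0.00669), and a region 5.42 kb from PRKCD at -1.18 (FDR 0.02). In DCIS these had 0.95 and 1.08, and neither passed the test.

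Of the retained regions, 4056 (77.3%) lay over 3738 protein-coding genes or within 5 kb upstream. Among these genes, 1900 (50.8%) had no 10A shCTRL region at all and 235 had no region in either 10A group. Of all 20007 protein-coding genes, 6999 had a 10A shCTRL region, so most genes had none. The rule also bars a 10A shCTRL region at each member, so these counts are no measure of genes marked in DCIS alone. Most regions stood alone: 3252 (62.0%) had no other retained region within 10 kb, and 30 groups held 5 or more neighbours. The gene with the most was RAD51B, a DNA repair gene, with 13 members over 20.8 kb. Of these 1 was up and 2 were down in DCIS and 5 were up in 10A, and the gene also held 17 shared regions.

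MYBPC1, which encodes slow-type myosin-binding protein C, held the group with most losses. Its 7 retained regions covered 12 kb and had DCIS log2 fold changes of -0.84 to -2.08, and 6 of the 7 were down. Their enrichment over input was 4.91 to 7.98 in shCTRL cells. None of the 7 lay in a region tested in 10A, and the gene had no enriched 10A region. EYA1, a transcriptional coactivator and phosphatase of organ development, was of the same kind, with 4 retained regions at -0.68 to -2.20, 2 of them down, and no enriched 10A region. SOX9, a transcription factor of progenitor cells, had 4 retained regions and no enriched 10A region, and the one 2.42 kb upstream had -1.93 (FDR 1.38e-05, 34 of 36 windows down).

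Other genes with many retained bases differed in their calls. TRPS1, a GATA-type zinc finger repressor, had 9 members over 19.5 kb, with DCIS changes of -1.43 to 0.68, and none passed. ACTN4, an actin crosslinker, had 6 with 2 up, SEPTIN9, a cytoskeletal GTPase, had 9 with 1 up, and ANXA2, a phospholipid-binding annexin, had 7 with 1 up. SEPTIN9 had no 10A shCTRL region and 8 regions in 10A shANCO1 cells. UNC5C, a netrin receptor, had 6 with 1 up, and SMOC1, a matrix protein, had 4 with none called. RUNX1, a RUNT-domain transcription factor, had 10 retained regions with 4 up and 1 down in DCIS. The largest of these gains, at chr21:35254801-35255500 in an intron, was 2.41 (FDR 0.000167), and in 10A it was 0.73 (FDR 0.0581).

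In 3 other large neighbour groups every DCIS change was positive. The 7 members beside PYGB and ENTPD6 had 0.27 to 0.92 with none called, the 6 at BCL9L and UPK2 had 0.65 to 0.97 with 1 up, and the 6 at INF2, a formin gene, had 0.25 to 0.80 with none called. All members of the last 2 groups overlapped a 10A shANCO1 region.

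Gene lists for pathways of this tissue held 307 distinct genes, and 88 had a retained region. Over all protein-coding genes 18.7% had one, and the 4056 members at them had 449 up and 144 down in DCIS with a median log2 fold change of 0.33. Counts of list members below are read against 23.6% up and 4.86% down over all DCIS regions, and 13.2% and 5.13% over all retained regions. These shares differ by place. At a TSS 7.99% of all DCIS regions and 5.16% of the retained ones were up, and elsewhere 30.1% and 21.2%.

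YAP-TEAD targets, genes read out by the HIPPO pathway, had the most up calls of any list by number. The lists differ in size, and the matrix and protease genes had a higher share, 3 of 5. At 8 of the 22 YAP-TEAD targets there were 15 members, 6 up and 2 down in DCIS, with a median of 1.04. Only 4 of the 15 were at a TSS. The gains were at ASAP1 (1.51), MYOF (1.13), PTPN14 (1.3), RBMS3 (1.53) and a pair at FJX1 that shared 1.04, and the losses were a pair in a different intronic stretch of RBMS3 that shared -1.80. WWTR1, which encodes the TEAD coactivator TAZ and was listed among AIB1 and ANCO1 partners, had 6 retained regions with DCIS changes of 0.29 to 1.60. The 3 that passed were intronic, with 1.04 (FDR 0.0122), 1.25 (FDR 0.00121) and 1.60 (FDR 0.000506), and 5 of the 6 were up in 10A. Of the other partner genes, NCOA2, which encodes a p160 coactivator, had 3 members with none called in DCIS and all up in 10A, and TEAD1 had 1 at 1.40 (FDR 0.0527).

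Receptor, adhesion and matrix genes had few members. The shares up in the 2 larger lists lay below the 23.6% over all regions and above the 13.2% over all retained regions. Of 14 members at 8 of 19 growth factor receptor and ligand genes, 2 were up, at the start of MET (1.84, FDR 0.00778), the hepatocyte growth factor receptor, and in an intron of IGF1R (1.41, FDR 0.000908). Both were also up in 10A, with 1.04 and 1.08. PDGFC, a ligand of the PDGF receptors, had 2 members at -0.31 and 1.58, and FGF2 had 1 at -0.60, with none called in DCIS. Of 22 members at 10 of 19 integrin and focal adhesion genes, 4 were up, a pair at ITGA3 that shared 0.99 and regions at CAV2 (1.85) and PXN (1.2). Others on the list had none called in DCIS. ACTN1, an actin crosslinker, had 5 regions at -1.08 to 0.56, with 4 up in 10A. ITGB8, an integrin subunit that activates TGF-beta, had 3 at 0.46 to 1.58. None of them was up in 10A, where the widest, of 4000 bp, was not tested and the only value was 0.80. Of 5 members at matrix and protease genes, 3 were up, among them a pair in an intron of LOXL2 that shared 1.03. The list of epithelial-mesenchymal transition genes had 3 members with 2 up, in introns of CDH1, which encodes E-cadherin (1.11, FDR 0.0123), and TGFBI (1.39, FDR 0.000314). CDH1, with 2 of the 3 members, is also one of the epithelial markers. The list thus mixes genes of both states, and its count gives no direction of transition.

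Of 9 members at TGF-beta, BMP and SMAD genes, 2 were up, at the start of ID2, an inhibitor of helix-loop-helix factors (1.75, FDR 0.00109), and in an intron of SMAD3 (1.40, FDR 0.000164). The direct region at ID2 was mixed, with 6 of 37 windows up and 3 down. SMAD7, the inhibitory SMAD, had 1 at -0.85 that was not called in DCIS and was up in 10A with 1.46, and the ligand gene TGFB2 had 2 at -1.49 and 0.00, not called in either line. Of 14 members at cell cycle genes, 12 were at CDK6, with 2 up in DCIS (1.40 and 1.57) and 7 up in 10A. Among inflammatory genes, LIF had a 4700 bp region over its start at 0.57 (FDR 0.33) and a region upstream at 0.95 (FDR 0.0259). CXCL1 had a 3900 bp region over its start, with 1.05 (FDR 0.235) in DCIS and 1.34 (FDR 1.17e-07) in 10A.

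Several lists had retained regions and no call in DCIS. The 12 members at 8 of 14 RAS-MAPK output genes had none called and a median of -0.69, with 7 of 10 tested members up in 10A. Of the 12, 8 were at a TSS, where 5.16% of retained regions were up and 1.92% down. With so few members, the lack of a call is not read as a result about a list. SPRY1 had -0.46, DUSP4 -1.02 and ETV5 -0.62 to 0.66 in DCIS. No member was called at the basal genes (10 members, with ITGA6 at -0.82 to 0.74, TRIM29 at -0.12 to 1.01 and the desmosomal cadherin gene DSC3 at 1.18), at the WNT and Notch genes (8 members, with the Notch target HES1 at 0.03 and 0.73, the ligand gene JAG2 at 0.60 and the coreceptor gene LRP5 at -0.40 and 0.72), at EREG and ERBB3, or at JUN and FOSL2. The JUN region had 0.79 (FDR 0.0887) in DCIS and 1.03 (FDR 0.000924) in 10A, where shCTRL cells had no region at the gene.

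Lineage transcription factors held both directions. Their 32 members at 13 of 30 genes had 5 up and 3 down, with a median of 0.10. Beside RUNX1 and SOX9, an intronic region of ETS1 was up (1.48, FDR 0.00207), and a 4500 bp region over a start of EHF, an epithelial ETS factor, was down (-1.24, FDR 0.00778) with a 10A value of -0.80 (FDR 0.384). Of the luminal genes, GATA3 had 3 members at -0.62 to -0.77, none called in DCIS and all up in 10A (0.80 to 1.40). KRT8 had 3, none called in DCIS and all up in 10A. ELF3 had 1, up at its start (1.47, FDR 0.0369).

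Motif words were counted in the 500 bp at each midpoint, on both strands. AP-1 words were in 468 retained regions (8.92%, 8.18 to 9.72), 5.12% of those at a TSS and 12.7% (11.4 to 14.0) of those away. Away from a TSS the not retained regions had 8.05% (7.07 to 9.16) and the shared ones 15.3% (14.0 to 16.8). The GATA word AGATAA was in 20.5% of the distal retained regions, 27.6% of the not retained and 28.3% of the shared ones, and the RUNX word TGTGGTT in 9.07%, 10.4% and 10.7%. TEAD words (GGAATG) were in 27.7%, 26.6% and 29.9%. The ETS word CCGGAAG was in 14.2% of the retained regions at a TSS and 3.97% away. Base composition differed between the classes, with a median GC of 48.2% in distal retained, 43.0% in distal not retained and 43.2% in distal shared regions, and its part in these shares was not tested.

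AP-1 words were placed beside the distal retained regions rather than at their centres. In bins of 100 bp from the midpoint, on both sides together, 4.84% of the 2647 distal retained regions had a word in the first 100 bp. The share rose to 9.60% at 300 to 400 bp and 10.7% at 400 to 500 bp, and it was 3.40% at 800 to 900 bp. Shared regions had the same course, from 5.75% to 11.6% at 300 to 400 bp. Not retained regions went from 2.43% to 6.28% at 400 to 500 bp, and their intervals lay below those of the retained regions in every bin from 0 to 800 bp except 100 to 200 bp. Over the same distance TEAD words in the retained regions went from 12.1% to 14.6%, RUNX words from 3.55% to 4.31% and GATA words from 9.33% to 11.0%. Per kb, distal retained regions up to 2 kb wide held 0.273 AP-1 words inside and 0.471 in the 500 bp on each side. Those up in DCIS had 0.607 outside and those down had 0.287. Distal shared regions up to 2 kb wide had 0.299 inside and 0.518 outside. Shared regions up in DCIS had 0.63 outside and those down had 0.398. The 547 retained regions up covered 244 kb and the 160 down covered 160.2 kb, so those down were wider. The part of width in these values was not tested. Outside the retained regions up and down, TEAD words had 0.799 and 0.588 per kb and RUNX words 0.236 and 0.325. GATA words had 0.521 and 0.525, and ETS words 0.053 and 0.0625. In 410 gaps of 100 to 1000 bp between neighbouring distal retained regions, 127 held an AP-1 word (31.0%, 26.7 to 35.6), 0.816 words per kb, as the CUEDC1 sequence above shows. The shared class was alike, with a word in 131 of 438 gaps (29.9%, 25.8 to 34.4), 0.812 words per kb. The share was thus not particular to the retained regions. In the not retained class 58 of 420 gaps did (13.8%, 10.8 to 17.4). This look at distances was chosen after the longer motif window had given a higher share than its length, and a word is not a bound factor.

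**Figure D4:**
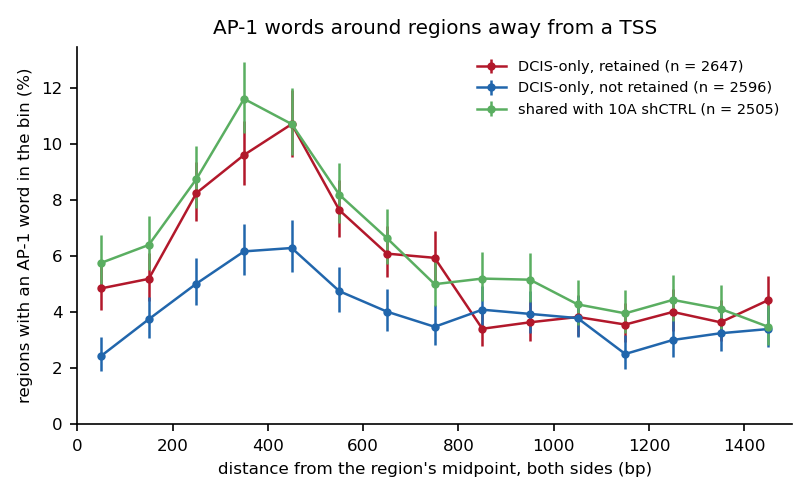
Percent of regions away from a TSS with an AP-1 word (TGACTCA or TGAGTCA) in each 100 bp bin of distance from the midpoint, both sides together, with Wilson 95% intervals, for the 3 classes of DCIS shCTRL regions. The retained regions rise from 4.84% at the centre to 10.7% at 400 to 500 bp and fall to 3.40% at 800 to 900 bp.

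The share of DCIS shCTRL regions that were retained differed between chromosomes. It was highest on chromosome 19 (326 of 702, 46.4%, 42.8 to 50.1), followed by chromosomes 16 (42.7%), 17 (42.4%) and 22 (40.5%). It was lowest on chromosome 13 (83 of 363, 22.9%, 18.8 to 27.5), chromosome 20 (24.6%) and chromosome 6 (26.9%). On chromosome 19 TSS regions made up 65.6% of the retained regions, against 44.6% on chromosome 13 and 29.1% on chromosome 20. The number of copies of each chromosome in the lines was not measured here, and its part in which regions passed the input filter was not tested. With at least 5 windows required, the share on chromosome 19 was 31.3%, below chromosomes 22 (40.2%), 8 (37.1%) and 17 (36.2%), whereas chromosome 13 stayed at 22.8%.

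**Figure D5:**
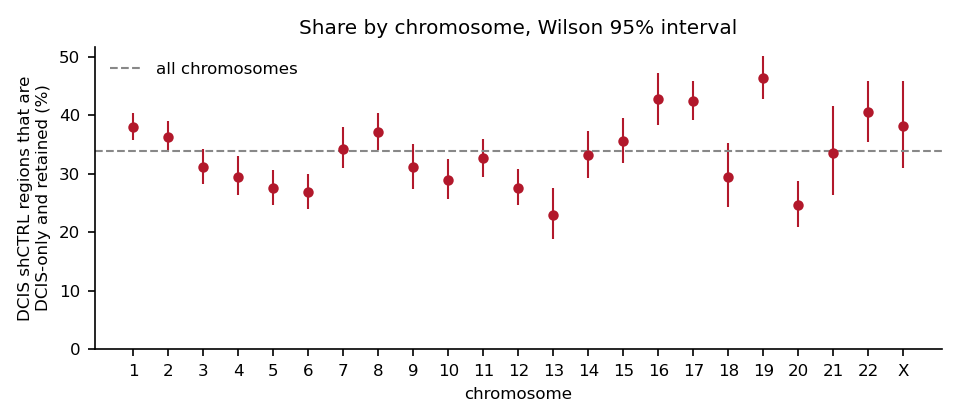
Percent of the DCIS shCTRL regions of each chromosome (x axis) that were DCIS-only and retained (y axis), with Wilson 95% intervals and the share over all chromosomes, 33.9%, dashed. Chromosome 19 lies highest at 46.4% and chromosome 13 lowest at 22.9%.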

How the data were processed

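The study's methods name BWA and Rsubread for alignment of the reads to GRCh38, samtools for duplicate removal, csaw for the binding tests and ChIPpeakAnno for the gene annotation, all run by the authors. FastQC and HOMER are also named in the submitters' processing notes. The 6 deposited tables compare whole groups of 3 libraries and give, for each region, a log2 fold change of 1 representative window, a p-value and its FDR computed by the authors, and numbers of windows. The normalization, the filters and the merging distance were not stated, nor which inputs entered a test. These columns are the authors' own comparisons. They were read because the regions are defined by them, and every fold change and FDR in the text is the authors' value. Depth per library is unknown, so no interval that needs it is given.

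From the tables, overlaps were taken at 1 bp or more, and each region was paired with the direct region that shared the most bases. A call was an FDR under 0.05 with the authors' direction up or down. Genes came from GENCODE release 44, and bases from hg38. Within GRCh38 no region ran past its chromosome's end. Python 3.11.15 with pandas 2.3.3 and pysam 0.24.0 was used, and overlap, pairing and motif search were tested on simulated data. Named regions were, among the members, the 5 widest, the 5 most enriched, the 5 most gained and 5 most lost in DCIS and the 3 each way in 10A (FDR under 0.05 and at least 5 windows), the 10 genes with most member bases, up to 3 genes per list and the 5 largest neighbour groups. List members called in DCIS were named after their values were seen, as were the sequences at MET, ID2 and the AP-1 words. The members and the 18 gene lists were chosen with earlier results of these data known. Whole groups were tested by the authors, so p-values may measure only technical spread between 3 libraries. Some results for genes that these rules name are not reported here.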

Additional observations from a re-analysis of the deposited data

How the results depend on the processing

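No paired analysis was possible because the tables hold no value for a single library, and for the same reason leaving out a library could not be run. Of 35 alternatives, 21 left their result within 1.5 times of a count or within the interval of a share. Calls at least 1 log2 unit from the table's median numbered 252 up and 269 down in DCIS. Up calls were 4.8% of members against 16.3% of all DCIS regions. In 10A 23 members were up (0.509% against 1.14%). Both medians are positive, so this setting asks a larger rise than fall from the deposited zero. The 269 down in DCIS equal the count without a limit, so the setting lowered the up count only and cannot decide the balance. Requiring 5 windows left 1899 members. An FDR under 0.01 gave 368 up (7.02%, against 16.4% of all regions) and 134 down in DCIS. In 10A it gave 1679 up (37.2%, against 25.5% of all regions) and 2 down, and an FDR under 0.1 gave 13 down in 10A. With the deposited zero kept and a change of 1 log2 unit or more, 651 were up and 267 down in DCIS, and 1193 were up in 10A. The share with a 10A shANCO1 region was 55.1% when it had to cover at least 50% of the member, and the share at a TSS was 53.7% with 2.5 kb on each side. AP-1 words were in 3.39% of members in 200 bp and in 21.8% in 1000 bp, and in both windows the distal retained regions (4.72% and 33.2%) lay between the not retained (2.39% and 21.5%) and the shared regions (5.63% and 37.0%). The share on chromosome 19 fell to 31.3% with at least 5 windows and was no longer the highest. Requiring 50% coverage for both conditions of the rule gave 6134 members, and requiring no 10A shCTRL region within 1 kb gave 4144. Replicate spread, depth and the strength of regions under the input filter set the limits of every count.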

Other observations

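Genes with several retained regions and no enriched 10A region in either group were listed after the values were seen. There were 16 with at least 3 such regions. Beside MYBPC1, EYA1 and SOX9 they included CHRM3, the muscarinic receptor M3 gene, with 4 retained regions and 3 down in DCIS, and BCL11A, a zinc finger transcription factor, with 4 and 1 down. CAPN8, TRIM9, CFAP95, UTP20 and FAM53B had 4 each and none called in either direction in DCIS. FREM2, an extracellular matrix gene, had 3 with 1 up, and IRX5, a homeobox factor, had 3 with none called.

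KRT15, LMNA and PRSS12, also picked after the values were seen, each held retained regions with different DCIS calls. At KRT15 the 4700 bp region over the start had -0.97 (FDR 0.154) and a neighbouring region, also at a start, had 0.91 and was up in both lines, and an intronic one had -0.66 and was not called. At LMNA, which encodes the nuclear lamins A and C, 2 of 5 retained regions shared a direct region with 1.02 and were up, and the other 3 had -1.13 to 0.33 and were not called. At PRSS12, a serine protease gene, a pair of regions over the start shared -2.33 and was down, whereas the 4 other retained regions had -0.24 to 0.49.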
